A study of Mus musculus with 6 samples.

Results

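The genes described here encode serglycin, the core protein on which mast cells build heparin (Srgn), and 9 enzymes that make the heparin chain (Xylt2, Ext1, Ext2, Ndst1, Ndst2, Glce, Hs2st1, Hs6st1 and Hs3st1). They were taken by gene symbol from the count table, which held all 10 among its 49568 genes. RNA was sequenced in 6 libraries of MC/9, a mouse mast cell line. For 3 rPTH libraries, 7F2 cells, a mouse osteoblast line, had been seeded a day earlier, and the mast cells were added, given 10 nM rPTH and collected after 24 h. The other 3 are control libraries of the same line with no treatment; the labels do not say whether those cells had also been grown on 7F2 osteoblasts, and no genetic change is named for either group. The labels do not spell out rPTH; the name was read as a parathyroid hormone preparation. Both lines are established cell lines, so the values do not extend to other mast cells. Osteoblast and stromal markers, given below, were counted in every library, so the values need not come from MC/9 cells alone. Whether replicates were separate cultures is not given. Every p-value thus measures only the spread between these libraries, which may be technical.

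Serglycin is a small secretory-granule proteoglycan whose serine residues, set in a run of serine-glycine repeats, can each carry a long sulfated sugar chain. In connective-tissue mast cells that chain is heparin, and in other mast cells it is largely chondroitin sulfate; in mice both serve to store histamine and basic proteases in the granule. A heparin chain is started by a xylosyltransferase, lengthened by the EXT1-EXT2 polymerase, and then modified in order by an N-deacetylase/N-sulfotransferase, an epimerase and the O-sulfotransferases. In mice, loss of Ndst2 removes heparin from mast cells, while Ndst1 is the broadly expressed enzyme of heparan sulfate.

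The stretch of Srgn that gives the proteoglycan its attachment sites is shown because the other 9 genes act on chains built there. In the GENCODE M21 transcript Srgn-201 a script found 10 consecutive serine-glycine codon pairs, at codons 90 to 109 of 152. Bases 297 to 380 of that transcript are given, with the repeat in capitals and 4 flanking codons on each side in lower case.
Srgn: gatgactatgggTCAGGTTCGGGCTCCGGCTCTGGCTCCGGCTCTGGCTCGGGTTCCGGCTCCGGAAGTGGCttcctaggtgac

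On GRCm38, Srgn lies on chromosome 10 from 62493833 to 62527451, minus strand, with 2.2 kb of merged exons. The polymerase genes lie on chromosome 15 from 53064038 to 53346159 (Ext1) and chromosome 2 from 93661028 to 93822568 (Ext2). The N-sulfotransferase genes lie on chromosome 18 from 60684494 to 60748650 (Ndst1) and chromosome 14 from 20723730 to 20734562 (Ndst2). Glce lies on chromosome 9 from 62057248 to 62122655 and Xylt2 on chromosome 11 from 94663851 to 94677515. Of the O-sulfotransferases, Hs2st1 lies on chromosome 3 from 144429706 to 144570181, Hs6st1 on chromosome 1 from 36068400 to 36106446 and Hs3st1 on chromosome 5 from 39613935 to 39755475. Exons of Hs6st1 share 447 bases with the antisense gene Gm37335 and those of Glce share 77 bases with Mir5133; both of these were listed at 0 counts in all 6 libraries. Rps14, a ribosomal protein gene, overlaps the span of Ndst1 on the other strand with no shared exon base.

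Total counts were 30623648, 32953708 and 33577977 in rPTH 1, 2 and 3, and 24387242, 24993606 and 22282095 in control 1, 2 and 3. In a principal component analysis of log2 CPM, component 1 (53.5% of variance) set control 1 apart from the rest, and component 2 (30.3%) set control 3 apart. The counts of control 1 came from shorter genes: the exon length averaged over its counts was 3797 bp, against 4986 to 5174 bp in the other 5 libraries. Marker sums are given in TMM-scaled CPM, as explained below. Mast cell markers, 10 genes, summed to 5290, 6850 and 6510 CPM in rPTH 1, 2 and 3 and to 8530, 6590 and 6600 CPM in control 1, 2 and 3. In unscaled CPM these sums were 5450, 7160 and 6910 in rPTH 1, 2 and 3. They were 6900, 6810 and 6850 in control 1, 2 and 3, so control 1 stood out only after scaling. Cpa3 had 1600 to 2640 CPM, while the protease Cma1 had 12.6 to 31.4 CPM and the protease Mcpt4 had 0 to 4 counts. Of the 9 that could be tested, 3 had a log2 fold change above 0 and 6 below 0 (median -0.23). Osteoblast and stromal markers, 19 genes, summed to 2880, 1750 and 1980 CPM in rPTH 1, 2 and 3 and to 1280, 1450 and 1380 CPM in control 1, 2 and 3. All 15 of them that could be tested had a log2 fold change above 0 (median 0.57), beside 41.5% of all tested genes. Bglap, Ibsp, Lum and Thy1 had 0 to 5 counts per library. In edgeR 9 of the 15 were higher with rPTH at an unadjusted p under 0.05, against 1.98% of all tested genes. Without rPTH 1 it was 2 of 15, against 0.261%. For 10 of the 15 every rPTH library lay above every control, against 8.35% of all tested genes. In such bulk libraries fewer cells of a type and less RNA per cell cannot be told apart. Macrophage, adipocyte and other blood cell markers summed to at most 24.6, 117 and 11.1 CPM in any library, and that last sum was in control 1.

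Levels are given first, as TMM-scaled CPM per kb of merged exon so that genes of different length can be set side by side. TMM-scaled CPM are counts relative to the library total multiplied by a TMM factor, 0.81 in control 1 and 1.03 to 1.06 elsewhere. Against unscaled CPM this raises every level in control 1 and slightly lowers those in the other libraries. Srgn was the most abundant of the 10 by far, at 170 ± 30.4 CPM per kb with rPTH and 201 ± 57.8 CPM per kb in controls (SD, n = 3 each). Over all 6 libraries its level per kb was 14.9 times that of Ext2, the next gene, and 81.9 times that of Glce, the lowest. Both factors were smaller with the longest transcript as length, where the means were 236 for Srgn, 24.5 for Ext2 and 3.2 for Glce. Mean enzyme levels over the 6 libraries were 12.4 CPM per kb for Ext2, 11.6 for Ndst2, 9.89 for Hs6st1, 8.27 for Hs3st1, 7.69 for Ndst1, 7.27 for Ext1 and 6.72 for Hs2st1. The ranges of neighbours in that order, among these 7, overlapped over the 6 libraries. Within single libraries, Ndst2 lay above Hs6st1 in all 6 and Hs6st1 above Hs3st1 in 5, and the other neighbours kept their order in 2 to 4. With the longest transcript as length, Hs6st1 came before Ndst2. Xylt2 at 3.58 CPM per kb lay below Hs2st1 in every library with no overlap of the ranges, and Glce, the epimerase, lay below Xylt2 at 2.27 CPM per kb, again with no overlap.

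**Figure D1:**
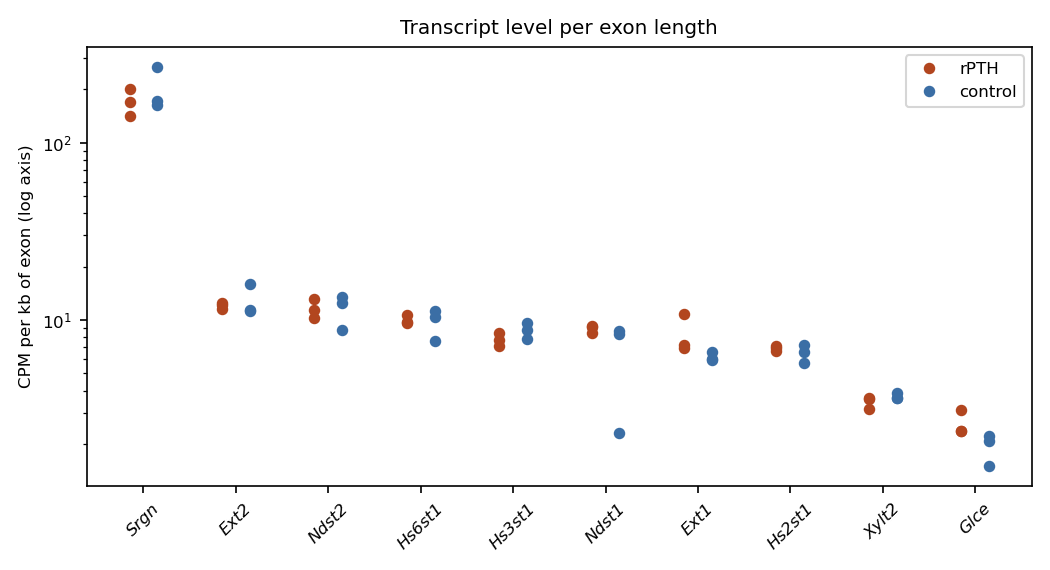
Level of each gene in CPM per kb of merged exon (log axis) in the 3 rPTH libraries (left of each name) and the 3 control libraries (right); each point is 1 library. Srgn sits between 141 and 268 CPM per kb in all 6 libraries, and Ndst1 in control 1 is at 2.29 CPM per kb against 8.36 to 9.31 CPM per kb in the other 5.

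Several of these enzymes belong to families, whose RNA came mainly from 1 or 2 members each. Xylt2 made up 89.3 ± 1.65% of the xylosyltransferase RNA per kb with rPTH and 93 ± 1.29% in controls (SD, n = 3 each), the rest being Xylt1. Ndst2 and Ndst1 together made up nearly all N-sulfotransferase RNA per kb: Ndst2 held 56 ± 2.48% with rPTH and 66.4 ± 10.8% in controls, and Ndst3 at most 0.533% in any library. Among the 6-O-sulfotransferases, Hs6st1 held 61.8 ± 5.92% with rPTH and 71.2 ± 1.14% in controls, and Hs6st2 held most of the remainder. Hs6st1 held 55.3%, 63.4% and 66.8% in rPTH 1, 2 and 3 against 72.3%, 71.3% and 70.1% in control 1, 2 and 3. The shares of Xylt2 (87.6% to 90.9% with rPTH and 91.7% to 94.3% in controls), Ndst2 (54.3% to 58.8% with rPTH and 59.6% to 78.8% in controls) and Hs6st1 did not overlap between the groups. These shares were not tested, and no such share was computed for other gene families. Hs3st1, whose product makes the antithrombin-binding site, held 90.1 ± 0.566% of the 3-O-sulfotransferase RNA per kb with rPTH and 88.9 ± 2.29% in controls, followed by Hs3st3b1 at 7.26 ± 0.409% with rPTH and 7.26 ± 1.99% in controls. Near the detection limit were Ndst4 (1 to 3 counts per library), Hs6st3 (0 to 7), Hs3st2 (0 to 2), Hs3st4 (1 to 3), Hs3st5 (0 to 3) and Hs3st6 (2 to 5). A count of 0 allows up to 3 counts, which is 0.0893 to 0.135 CPM at these depths and covers counting error only.

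The comparison of rPTH with control asks which of these genes differed between the groups. No member did by the test used: with edgeR's quasi-likelihood test and Benjamini-Hochberg adjustment over 16696 genes, the adjusted p of the 10 ran from 0.624 to 1, and 0 genes of the whole table were called (0%). An unadjusted p under 0.05 was reached by 0 of the 10 members and by 7.87% of all tested genes (1.98% higher and 5.89% lower with rPTH). DESeq2 called 8 genes of the table (0.0209%) and 0 members. Of the 10 members, 2 had groups that did not overlap, Ext1 and Glce, both with rPTH above control; over all tested genes the groups did not overlap for 16.8%, with rPTH above control for 8.35% and below for 8.46%. The median log2 fold change, rPTH minus control, was 0.02 over the members and -0.09 over all tested genes. In the fit of protein-coding genes only, the class of all 10 members, these medians were 0.02 and 0.00. A p that misses the threshold does not show that the levels were alike.

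**Figure D2:**
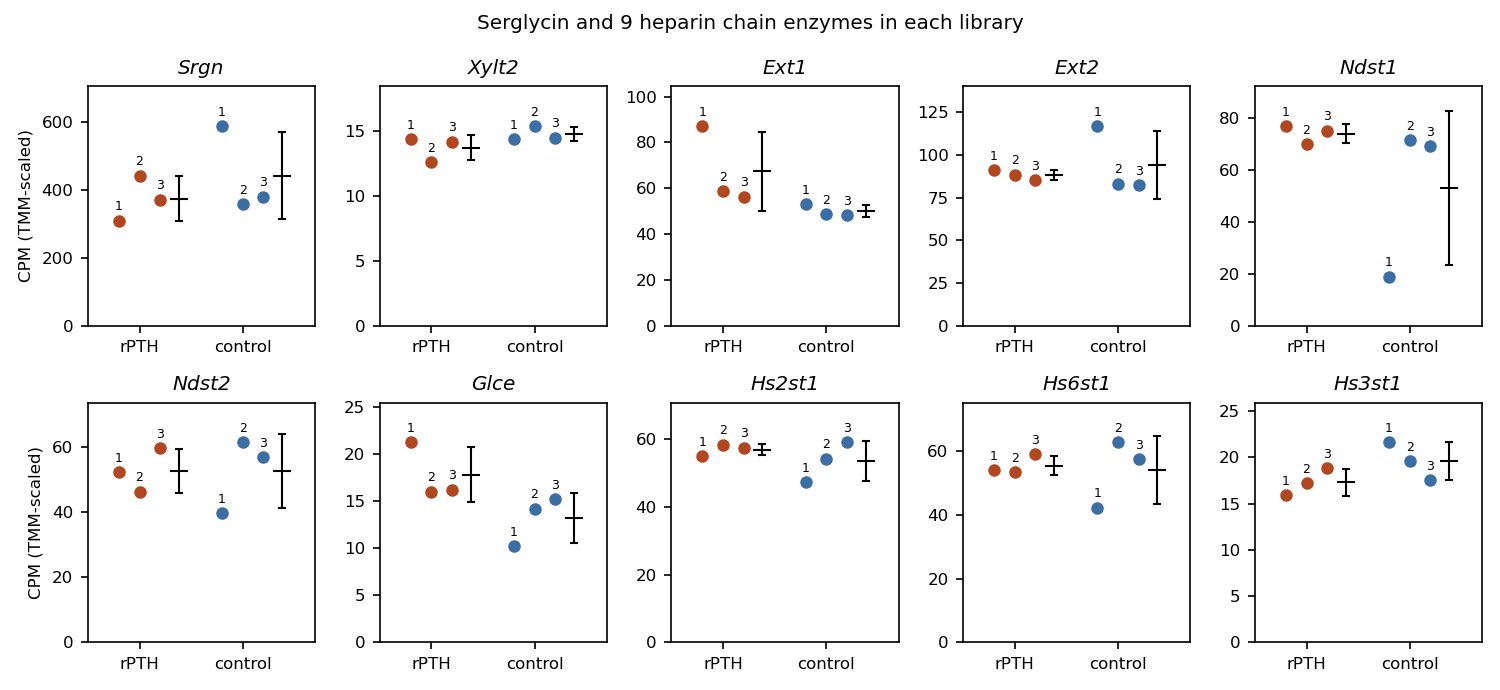
TMM-scaled CPM of each gene in every library, rPTH left and control right, with replicate numbers beside the points and the mean ± SD of each group of 3 as a bar. Ext1 and Glce have all 3 rPTH libraries above all 3 controls, and control 1 is the lowest point for Ndst1 (19 CPM) and the highest for Srgn (588 CPM).

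Srgn had 309, 442 and 371 CPM in rPTH 1, 2 and 3 and 588, 358 and 380 CPM in control 1, 2 and 3. Control 1 was the highest library and rPTH 1 the lowest, and the other 4 lay between 358 and 442 CPM, so the groups overlapped. The means were 374 ± 66.7 CPM with rPTH and 442 ± 127 CPM in controls (SD, n = 3 each). The log2 fold change was -0.24 ± 0.26 (SE). The difference rested on control 1: without it the log2 fold change was 0.01.

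Xylt2, the transferase that adds the first sugar, xylose, to serine, had 14.4, 12.6 and 14.2 CPM in rPTH 1, 2 and 3 and 14.4, 15.4 and 14.5 CPM in control 1, 2 and 3. Its log2 fold change was -0.10 ± 0.16 (SE) and turned to 0.02 with library totals as the scaling. It was among the steadiest of the set, with means of 13.7 ± 1.01 CPM with rPTH and 14.8 ± 0.553 CPM in controls (SD, n = 3 each).

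The polymerase genes differed from each other. Ext1 had 87.2, 58.8 and 56.4 CPM in rPTH 1, 2 and 3 and 53.1, 48.7 and 48.3 CPM in control 1, 2 and 3, so that every rPTH library lay above every control, with rPTH 1 far above the rest. Its log2 fold change was 0.43 ± 0.21 (SE) with an unadjusted p of 0.0751 and an adjusted p of 0.624 in edgeR. The size depended on rPTH 1, without which it was 0.20, and on gene length and GC content, since it was 0.14 once each library's trend with both was removed. Library rPTH 1 was also the highest in the summed osteoblast and stromal markers given above; the part of those markers in the Ext1 values was not tested. Ext2, the partner subunit, had 91.1, 88.4 and 85.1 CPM in rPTH 1, 2 and 3 and 117, 83.3 and 82.2 CPM in control 1, 2 and 3, a log2 fold change of -0.10 ± 0.19 (SE) that was 0.08 without control 1.

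The ratio of both subunits within a library needs no scaling between libraries. Ext2 had 1.04, 1.5 and 1.51 counts per Ext1 count in rPTH 1, 2 and 3 and 2.21, 1.71 and 1.7 in control 1, 2 and 3. The 3 rPTH libraries were all below the controls. The mean log2 ratio was 0.42 ± 0.30 with rPTH and 0.90 ± 0.21 in controls (SD, n = 3 each), and the difference of -0.48 had an exact two-sided permutation p of 0.1, the smallest that 3 libraries against 3 can give. Without rPTH 1 the difference was -0.30.

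Ndst1 and Ndst2 remove acetyl groups from the growing chain and put sulfate in their place, the step on which later sulfation depends. Ndst1 had 77.1, 70 and 75.2 CPM in rPTH 1, 2 and 3 and 19, 71.6 and 69.2 CPM in control 1, 2 and 3. A single control set the group difference: control 1, with 374 counts, lay far below the other 5 libraries, which spanned 69.2 to 77.1 CPM. The log2 fold change was 0.47 ± 0.46 (SE) with all libraries and 0.06 without control 1. Ndst2 had 52.1, 46.2 and 59.5 CPM in rPTH 1, 2 and 3 and 39.7, 61.3 and 56.7 CPM in control 1, 2 and 3, with equal group means of 52.6 ± 6.64 CPM with rPTH and 52.6 ± 11.4 CPM in controls (SD, n = 3 each). Its log2 fold change was 0.00 ± 0.21 (SE) and was -0.18 without control 1.

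Within each library, Ndst2 had 0.675, 0.66 and 0.791 counts per Ndst1 count in rPTH 1, 2 and 3 and 2.09, 0.857 and 0.819 in control 1, 2 and 3. The rPTH libraries again lay below all controls, but rPTH 3 was close to controls 2 and 3 and control 1 was far above them. The mean log2 ratio was -0.50 ± 0.14 with rPTH and 0.18 ± 0.76 in controls (SD, n = 3 each), a difference of -0.69 with an exact two-sided permutation p of 0.1, again the smallest possible. Without control 1 the difference was -0.25. Both ratios were compared in the same way, and over these 2 tests the Benjamini-Hochberg adjusted permutation p was 0.1 for each. Per kb of exon, Ndst2 RNA was 1.2 to 1.44 times that of Ndst1 with rPTH and 1.49 to 3.81 times in controls.

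**Figure D3:**
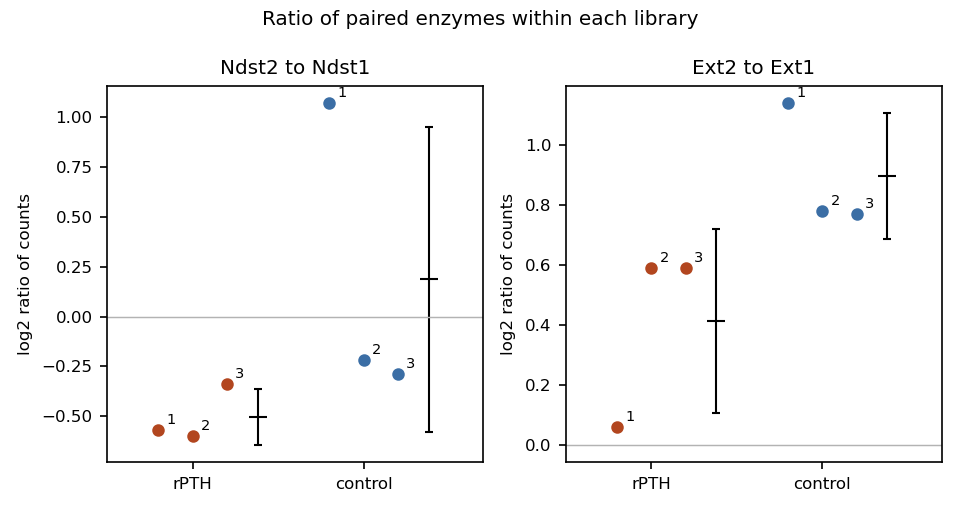
Log2 ratio of counts within each library for Ndst2 to Ndst1 (left) and Ext2 to Ext1 (right), rPTH left and control right in each panel, with the mean ± SD of 3 libraries as a bar. In both panels all 3 rPTH libraries lie below all 3 controls, and control 1 is the highest point, at 1.07 and 1.14.

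Glce, the epimerase that turns glucuronic into iduronic acid, had 21.2, 16 and 16.2 CPM in rPTH 1, 2 and 3 and 10.2, 14.2 and 15.2 CPM in control 1, 2 and 3. All 3 rPTH libraries were higher, though rPTH 2 and 3 exceeded control 3 by a small margin. The log2 fold change was 0.43 ± 0.22 (SE), with an adjusted p of 0.628 in edgeR, and it was 0.26 without control 1, 0.28 without rPTH 1 and 0.23 with the length and GC trend removed.

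The O-sulfotransferases overlapped between the groups. Hs2st1, which acts on iduronic acid, had 55, 58.3 and 57.4 CPM in rPTH 1, 2 and 3 and 47.2, 54.2 and 59 CPM in control 1, 2 and 3 (log2 fold change 0.09 ± 0.15, SE, and -0.13 with the length and GC trend removed). Hs6st1, which sulfates glucosamine, had 54, 53.4 and 59 CPM in rPTH 1, 2 and 3 and 42.2, 62.7 and 57.4 CPM in control 1, 2 and 3 (0.04 ± 0.19, and -0.12 without control 1). Hs3st1 had 15.9, 17.2 and 18.8 CPM in rPTH 1, 2 and 3 and 21.6, 19.6 and 17.5 CPM in control 1, 2 and 3, a log2 fold change of -0.18 ± 0.17 (SE) that was -0.03 with the length and GC trend removed.

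**Figure D4:**
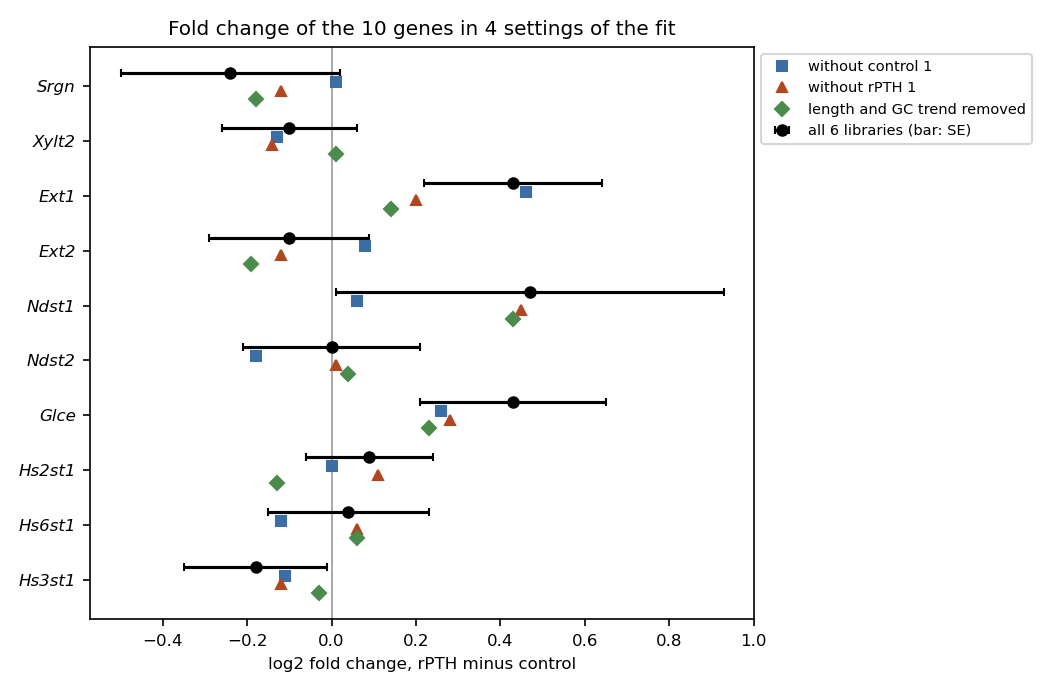
Log2 fold change, rPTH minus control, of each gene with all 6 libraries (black, bar: SE), without control 1 (squares), without rPTH 1 (triangles) and with each library's length and GC trend removed (diamonds). Ndst1 moves from 0.47 to 0.06 without control 1, and Ext1 from 0.43 to 0.20 without rPTH 1 and to 0.14 with the trend removed.

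Because control 1 set several of these values, it was compared with the mean of controls 2 and 3 gene by gene. On the log2 scale Srgn was 0.67 higher in control 1, Ext2 0.50 and Hs3st1 0.22, while Ndst1 was at -1.89, Ndst2 at -0.57, Glce at -0.52, Hs6st1 at -0.51 and Hs2st1 at -0.26. Ext1 (0.13) and Xylt2 (-0.06) were nearest to 0. Over all genes of at least 1 CPM in controls 2 and 3, split into 4 equal classes of exon length, the median of the same log2 ratio was 0.32 for the shortest genes, 0.46 for the next class, 0.02 for the third and -0.54 for the longest. Ndst1 was at percentile 4.62 of the 3590 genes in the longest class, and Ext2 was at percentile 92.7 of them. Across the 10 members the Spearman correlation of the log2 ratio with exon length was -0.47, a description over 10 genes of the same libraries.

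**Figure D5:**
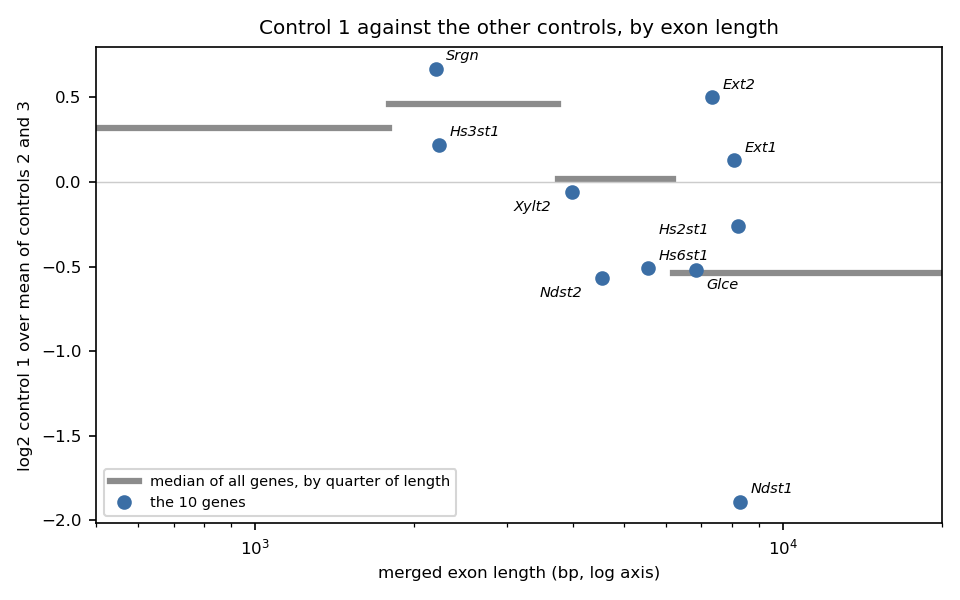
Log2 ratio of control 1 to the mean of controls 2 and 3 (TMM-scaled CPM) against merged exon length (log axis) for the 10 genes, with the median of all genes in each of 4 length classes as grey bars, clipped at the axis limits. Short Srgn (0.67) is high and long Ndst1 (-1.89) is the lowest point. Of the other genes in the longest class, Ext1, Ext2 and Hs2st1 (-0.26) lie above the bar of their length (-0.54), and Glce (-0.52) lies close to it.

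From library to library, Srgn followed Fcer1a and Cpa3 more closely than 5 other mast cell genes it was set against (Hdc, Tpsb2, Gata2, Ms4a2 and Kit). All correlations here are descriptions over 6 points that share their libraries, with control 1 as an extreme point. Of 4746 other tested genes with a mean of at least 50 CPM, those most like it in log2 CPM over the 6 libraries were Fbxo9 (Pearson r 0.996), Cpa3 (0.995), Fcer1a (0.995) and Rab38 (0.995), and without control 1 their r was 0.983 to 0.997. Cpa3 is the mast cell carboxypeptidase that serglycin stores, and Fcer1a is the binding chain of the IgE receptor. The ratio of counts needs no scaling. Srgn had 0.28, 0.27 and 0.274 counts per Fcer1a count in rPTH 1, 2 and 3 and 0.284, 0.27 and 0.268 in control 1, 2 and 3, so that the highest ratio was 1.06 times the lowest. The corresponding spread was 1.15 times for Cpa3, 1.3 times for the histamine enzyme gene Hdc, 1.73 times for Ms4a2, another IgE receptor chain, 1.46 times for the tryptase gene Tpsb2, 1.72 times for the transcription factor gene Gata2 and 3.58 times for the stem cell factor receptor gene Kit; these ratios were chosen after their values were seen. Without control 1 the spread was 1.46 times for Kit, 1.21 times for Ms4a2, 1.56 times for Gata2, 1.04 times for Fcer1a and 1.09 times for Cpa3. Per Tpsb2 count, Srgn had 0.718, 0.704 and 0.671 counts in rPTH 1, 2 and 3 and 0.49, 0.551 and 0.603 in control 1, 2 and 3, with no overlap. Its ratios to Cpa3, Fcer1a, Ms4a2, Hdc, Kit and Gata2 all overlapped between the groups, and none of these ratios was tested. For the enzymes, Pearson r with Srgn was -0.882 for Ndst1, -0.877 for Glce, -0.805 for Ndst2, -0.804 for Hs6st1, -0.642 for Hs2st1, -0.441 for Ext1, -0.295 for Xylt2, 0.715 for Hs3st1 and 0.782 for Ext2. Without control 1 that of Ext2 was -0.256 and that of Hs2st1 was 0.685, both of the other sign, and those of the rest were -0.756 for Ndst1, -0.699 for Xylt2, -0.601 for Glce, -0.566 for Ext1, -0.406 for Ndst2, -0.146 for Hs6st1 and 0.242 for Hs3st1. Among the members and related lists, the genes most like Srgn were the sulfate-donor transporters Slc35b3 (r 0.967) and Slc35b2 (0.898) and the lysosomal glucuronidase Gusb (0.893); without control 1 these were 0.898, 0.532 and 0.499.

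Srgn counts per count of the 9 enzymes together were 0.661, 1.05 and 0.841 in rPTH 1, 2 and 3 and 1.61, 0.83 and 0.905 in control 1, 2 and 3. Controls 2 and 3 lay within the range of the rPTH libraries, and control 1 lay above it.

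The genes around these 10 in the same pathway were read from the same fit, and 0 of the 64 that could be tested passed over all genes. The enzymes of the linker sugars besides Xylt2 had 3 of 6 log2 fold changes above 0 (median -0.02). Fam20b, the kinase that phosphorylates the linker xylose, was the most abundant, with 141, 160 and 152 CPM in rPTH 1, 2 and 3 and 88.5, 153 and 156 CPM in control 1, 2 and 3. Xylt1 had 4.01 ± 0.821 CPM with rPTH and 2.72 ± 0.544 CPM in controls (SD, n = 3 each), with no overlap between the groups. The linker glucuronyltransferase B3gat3 had 32.3 ± 1.36 CPM with rPTH and 47 ± 20.5 CPM in controls, where control 1 alone had 70.3 CPM, and B4galt7, a linker galactosyltransferase, had 20.1 ± 0.846 CPM with rPTH and 23.8 ± 4.1 CPM in controls.

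Other chain enzymes had 4 of 7 tested log2 fold changes above 0 (median 0.16), and 6 of the 13 listed were too low to test. Hs6st2, a 6-O-sulfotransferase, had 61.4, 43.2 and 41.2 CPM in rPTH 1, 2 and 3 and 22.8, 35.5 and 33.2 CPM in control 1, 2 and 3. All rPTH libraries lay above all controls, with a log2 fold change of 0.67 ± 0.24 (SE), an unadjusted p of 0.0288 and an adjusted p of 0.619 in edgeR; without both control 1 and rPTH 1 it was 0.30, and without rPTH 1 alone the unadjusted p was 0.108. Extl3, which adds the first glucosamine that commits the linker to heparan, had 63.6 ± 10.2 CPM with rPTH and 47.8 ± 6.01 CPM in controls (log2 fold change 0.41 ± 0.18, SE), also without overlap. Extl1, a glucosaminyltransferase of the same family, had 3.85 ± 0.681 CPM with rPTH and 5.41 ± 0.972 CPM in controls, with the rPTH libraries below the controls in TMM-scaled CPM but overlapping them in unscaled CPM.

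Genes that supply sugar nucleotides and the sulfate donor PAPS had 7 of 12 log2 fold changes above 0 (median 0.09). Papss2, a PAPS synthase, was the most abundant at 218 ± 21.1 CPM with rPTH and 187 ± 56.7 CPM in controls (SD, n = 3 each), followed by Ugdh, which makes UDP-glucuronic acid, at 153 ± 22.3 CPM with rPTH and 127 ± 17.3 CPM in controls. Impad1, the Golgi phosphatase that clears the by-product of sulfation, had 86.9 ± 6.36 CPM with rPTH and 65.2 ± 12.6 CPM in controls, without overlap (log2 fold change 0.41 ± 0.19, SE, and 0.10 with the length and GC trend removed).

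Chondroitin sulfate is the other chain that serglycin carries, and its enzymes had 11 of 15 tested log2 fold changes above 0 (median 0.15). Chst15, which makes the doubly sulfated chondroitin of mucosal-type mast cells, was the most abundant of them at 109 ± 13.7 CPM with rPTH and 110 ± 22.5 CPM in controls (SD, n = 3 each). The polymerizing factor Chpf had 53.8 ± 10.1 CPM with rPTH and 61.4 ± 28.3 CPM in controls, and came second in the mean over all 6 libraries through control 1 (94 CPM). Dse, the epimerase that makes dermatan sulfate, had 39.9, 27 and 26.1 CPM in rPTH 1, 2 and 3 and 16.3, 18.3 and 19.9 CPM in control 1, 2 and 3, with all rPTH libraries above the controls. Its log2 fold change was 0.77 ± 0.22 (SE), with the smallest unadjusted p of these lists, 0.00942, and an adjusted p of 0.619 in edgeR; it was 0.47 without both control 1 and rPTH 1. Csgalnact1, which starts chondroitin chains, had 10.2 ± 2.98 CPM with rPTH and 6.63 ± 0.408 CPM in controls (unadjusted p 0.0438 in edgeR), and Chst3, a chondroitin 6-O-sulfotransferase, 0.921 ± 0.258 CPM with rPTH and 0.546 ± 0.083 CPM in controls; neither overlapped between the groups. The unadjusted p of Csgalnact1 in edgeR was 0.166 without rPTH 1.

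Enzymes that trim or degrade the chain had 6 of 10 tested log2 fold changes above 0 (median 0.14). Heparanase, Hpse, was low, with 44, 34 and 24 counts in rPTH 1, 2 and 3 and 20, 28 and 12 counts in control 1, 2 and 3. The glucuronidase Gusb was among the most abundant, at 151 ± 5.28 CPM with rPTH and 169 ± 35.7 CPM in controls (SD, n = 3 each). The extracellular sulfatase Sulf2 had 7.28 ± 1.64 CPM with rPTH and 5.19 ± 0.638 CPM in controls and the lysosomal sulfatase Sgsh 9.52 ± 1 CPM with rPTH and 7.54 ± 0.34 CPM in controls, both without overlap. Naglu, the lysosomal glucosaminidase, had 25 ± 2.66 CPM with rPTH and 31 ± 5.51 CPM in controls.

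Core proteins other than serglycin had 12 of 14 tested log2 fold changes above 0 (median 0.44), beside 41.5% of all tested genes above 0. An unadjusted p under 0.05 was reached by 4 of the 14, all higher with rPTH, against the 1.98% of all tested genes given above. The listed genes are protein-coding, and all tested genes include other classes. In the fit of protein-coding genes only, 5 of the 14 reached it, against 3.37% of those genes. The list median there was 0.45, against 0.00 over all protein-coding genes. The count of 4 moved with single libraries. It was 0 of 14 without rPTH 1, where 0.261% of all tested genes were higher at that threshold. Without control 1 it was 8 of 14, where 4.46% were. Without both it was 7 of 14, where 3.17% were. Leaving out rPTH 2, rPTH 3, control 2 or control 3 gave 3 of 14 each. In those fits, in that order, 1.27%, 1.46%, 1.13% and 3.79% of all tested genes were higher at that threshold. The 4 were Cd44, a hyaluronan receptor that can carry such chains (128 ± 32.9 CPM with rPTH and 84.2 ± 0.636 CPM in controls, SD, n = 3 each), the versican gene Vcan (184 ± 53.8 CPM with rPTH and 90.1 ± 41.4 CPM in controls), the syndecan gene Sdc3 (75.3 ± 19.4 CPM with rPTH and 50.7 ± 4.8 CPM in controls) and the glypican gene Gpc6 (11.3 ± 2.94 CPM with rPTH and 7.27 ± 0.582 CPM in controls). Their adjusted p was 0.619 each in edgeR. Bgn, which encodes the matrix proteoglycan biglycan, was the most abundant at 634 ± 158 CPM with rPTH and 467 ± 94.7 CPM in controls. Hspg2, which encodes perlecan, was close to Vcan in level, at 173 ± 56.4 CPM with rPTH and 102 ± 43 CPM in controls. All 6 were highest in rPTH 1, as were the osteoblast and stromal markers, whose part in these values was not tested.

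The authors' deposited table gave 1 of the 10 genes, Ext1, an unadjusted p under 0.05 (log2 fold change 0.47, p 0.0346, adjusted p 0.382), where 5.09% of the genes with a p in that authors' deposited table had one. In the authors' deposited table the next members were Glce (log2 fold change 0.45, adjusted p 0.511) and Ndst1 (0.40, adjusted p 0.72), and Srgn had -0.13 (adjusted p 0.837).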

How the data were processed

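The authors deposited a table of whole-number read counts per gene for 6 libraries, not normalized. Per the submitters' processing notes, which give no roles or order, R 3.3.0, DESeq2 1.12.4, featureCounts, Subread 1.5.0p3, STAR 2.5.2b and Trimmomatic 0.36 were used, and the builds mm9 and GRCm38.p5 are named. Neither the annotation nor the strand setting is given in the sources used here; without strand, overlapping genes cannot be told apart. Of the authors' deposited comparison only the log2 fold changes and p-values are quoted; the Wald score and the mean signal over libraries that the authors also deposited are not.

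Counts were tested with edgeR 4.0.16 (quasi-likelihood, robust, TMM, filterByExpr with a minimum count of 10) in R 4.3.3; 16696 genes passed, with all 10 members among them, and p-values were adjusted by Benjamini-Hochberg over all of these (threshold 0.05). The fits were tested on simulated data first. CPM are scaled by TMM factors (0.81 in control 1, 1.03 to 1.06 elsewhere); lengths, gene classes and the Srgn transcript come from GENCODE M21 (GRCm38), in which 95.3% of symbols matched. Ratios of counts within a library were compared with exact permutation tests (scipy 1.17.1). Alternatives used DESeq2 1.42.0, limma 3.58.1, other scalings and filters, protein-coding genes, removal of each library's trend with exon length and GC content, a replicate block and left-out libraries. The members, lists and tests were chosen with earlier results of these data known. Besides the members, the text names from each list the 3 genes of smallest p, the 2 of highest mean CPM and any with an unadjusted p under 0.05; Hpse and genes near 0 were named after their values were seen, and a few genes that the rule takes are not reported here. No pair of libraries was a duplicate (chi-square per degree of freedom 13.3 to 291).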

Additional observations from a re-analysis of the deposited data

How the results depend on the processing

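No member and no gene of the related lists was called under any setting. Ndst2, at 0.00, has no sign to keep and took both signs. The fold changes of the other 9 members did not turn sign in 138 of 153 alternatives, and Ext1, Ndst1, Glce and Hs3st1 never did; for the 25 named list genes it was 407 of 424. An alternative printed as 0.00 was not counted as a turn. Over the settings that leave out 1 library, log2 fold changes ran from -0.38 to 0.01 for Srgn, -0.18 to 0.08 for Ext2, -0.12 to 0.15 for Hs6st1, -0.04 to 0.39 for Fam20b, -0.02 to 0.40 for Papss2, -0.18 to 0.12 for Chst15, -0.36 to 0.24 for Chpf and -0.23 to 0.01 for Gusb. Without control 1 and rPTH 1 together, chosen after seeing the data, the sign turned for Srgn (0.14), Ext2 (0.06), Hs6st1 (-0.10), Chpf (0.09) and Gusb (0.05). With library totals it turned for Xylt2 (0.02), Ext2 (0.05) and Chst15 (0.08), and without the low-count filter for Xylt2 (0.02), Ext2 (0.05) and Chst15 (0.09). With the length and GC trend removed it turned for Xylt2 (0.01), Hs2st1 (-0.13), Fam20b (-0.06) and Ugdh (-0.01). Chst15 was 0.03 with DESeq2 size factors and 0.05 in DESeq2. The causes were not tested.

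Genes called over the whole table numbered 0 with edgeR and 8 with DESeq2. Those with an unadjusted p under 0.05 numbered 1314, against 1995 in DESeq2, 790 in limma-voom, 2377 without the filter, 620 among protein-coding genes, 802 with the length and GC trend removed and 855 without control 1 and rPTH 1; they ran from 272 to 2165 when 1 library was left out. Of such genes 25.2% were higher with rPTH, against 43.3% with library totals, 41.5% in limma-voom, 66.9% among protein-coding genes and 57.1% with the trend removed. Another scaling moved the median of all genes from -0.09 to 0.04 with library totals. Ext1 had an unadjusted p of 0.0415 with DESeq2 size factors, 0.0294 with library totals, 0.0352 in DESeq2, 0.0255 without the filter and 0.0156 without control 1 and rPTH 1. In those settings, in the same order, 7.86%, 7.11%, 5.22%, 6.22% and 5.01% of all tested genes were under 0.05. In every other alternative the p of Ext1 was above 0.05. It ran there from 0.051 (edgeR without control 1) to 0.595 (edgeR with the length and GC trend removed). With the longest transcript as length, 6 of the 10 members kept their place in the order of levels.

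Replicate numbers gave no pairing: same-numbered libraries correlated at -0.134, -0.325 and 0.149 in their deviations, and no rPTH library correlated best with its own number. With a replicate block the count of genes with an unadjusted p under 0.05 was 525, and 444 with the length and GC trend also removed. In that last fit the sign turned for Xylt2 (0.03), Hs2st1 (-0.13), Fam20b (-0.06) and Chpf (0.01). The ratio differences under the block equal the main ones, -0.69 and -0.48, by arithmetic alone, since every replicate number occurs once in each group. Over the settings that leave out 1 library, they ran from -0.92 to -0.25 for Ndst2 to Ndst1 and from -0.57 to -0.30 for Ext2 to Ext1.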
